A study of Mus musculus with 2 samples.

Results

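Msx1, Msx2 and Msx3, Gsx1 and Gsx2, and Zic1, Zic2, Zic4 and Zic5 are transcription factors of dorsal neural progenitors, and their 9 genes were taken by name from the 43346 mouse genes measured. Symbols were matched to Ensembl identifiers in the gene table and in the transcript table of each library. The material was neural tube, the embryonic structure that gives rise to the brain and spinal cord, of healthy B6NCrl mouse embryos at embryonic day 12.5. There was 1 group of 2 biological replicates, each a pool of embryos of both sexes, with 120 embryos in replicate 1 and 88 in replicate 2. Both carry the same donor identifier, and the labels do not say whether the pools were separate litters, so the spread between them may be partly technical. Each library was made from 10 ng of total RNA longer than 200 nucleotides with spike-in controls. Since no other tissue, stage or treatment enters, genes, transcripts and pools were compared with one another, without p-values.

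The roof plate, at the dorsal midline of the neural tube, releases BMP and Wnt signals that pattern the dorsal progenitors. The Msx homeodomain repressors are classic targets of BMP signalling there. Msx3 is known from the dorsal neural tube, while Msx1 and Msx2 are also expressed in roof plate, neural crest derivatives, mesenchyme and epidermis. Gsx1 and Gsx2 are homeodomain factors of dorsal interneuron progenitors in the spinal cord, and of the ventral telencephalon in the forebrain. The Zic zinc finger factors are expressed in the dorsal neural tube, the somites and the meninges, and hold progenitors in an undifferentiated state. Zic1 and Zic4 lie head to head, as do Zic5 and Zic2.

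Msx3 was measured as a pair of coding transcripts that differ in reading frame. GENCODE lists Msx3-202, with 612 coding bases, and Msx3-201, with 438. Both open at the same start codon on chr7 (base 140048999, minus strand, GRCm38). The first exon of Msx3-201 runs 68 bases further, through chr7:140048718-140048785, which is intron in Msx3-202. The sequences are shown because these bases separate the forms. Each line gives the last 20 bases of the first exon of Msx3-202, the added bases in capitals where the transcript has them, and the first 20 bases of the next exon.

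Msx3-201: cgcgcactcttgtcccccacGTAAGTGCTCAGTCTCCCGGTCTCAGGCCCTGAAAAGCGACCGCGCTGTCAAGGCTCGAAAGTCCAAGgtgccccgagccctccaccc
Msx3-202: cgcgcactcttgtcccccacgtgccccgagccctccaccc

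All of these bases are coding in the GENCODE M21 models. The added stretch leaves 2 bases over whole codons, so Msx3-201 reads the following exon in another frame. The predicted proteins share their first 72 residues, after which 74 follow in Msx3-201 and 132 in Msx3-202. The conserved stretch of the recognition helix that marks a homeodomain was in frame in Msx3-202 and absent from the translation of Msx3-201.

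Gsx2 has a shorter form of the same kind, shown because it also loses that stretch. In each line the last 20 bases of the first exon are in lower case, and the first 20 bases of the next exon are in capitals.

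Gsx2-201: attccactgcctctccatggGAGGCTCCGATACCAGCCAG
Gsx2-202: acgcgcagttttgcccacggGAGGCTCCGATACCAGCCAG

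The first exon of Gsx2-201 ends 214 bases after that of Gsx2-202, at base 75076337 against 75076123 of chr5 (plus strand), and 214 bases leave 1 over whole codons. The predicted proteins share 121 residues, and 13 residues follow in Gsx2-202 against 184 in Gsx2-201. The deposited length of Gsx2-202 was 1320 bases and its M21 model has 1182, so this line shows the later model.

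All 9 genes were detected, that is, each library gave at least 1 TPM (transcript abundance corrected for length and depth). Of 21474 protein-coding genes, 62.1% were detected by the same rule. The members ranked between the 54.2nd and the 89.7th percentile of protein-coding genes by TPM. Msx3 stood highest, followed by Zic4, Msx1, Zic1 and Gsx1, and the values of neighbours in that order did not overlap between libraries. The place of Zic4 above Msx1 held for all its transcripts together: with complete coding transcripts only, an alternative chosen after seeing the data, Zic4 was at 15.6 and 19.3 TPM, below Msx1 at 30.0 and 38.9. Msx2, Zic5, Zic2 and Gsx2 came next, and each overlapped its neighbour in the order, so these 4 had no order beyond their spread. Zic1 exceeded Gsx1 by only 1.05-fold in replicate 1 and 1.27-fold in replicate 2. In bulk tissue, fewer cells of a type and less RNA per cell cannot be told apart.

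**Figure D1:**
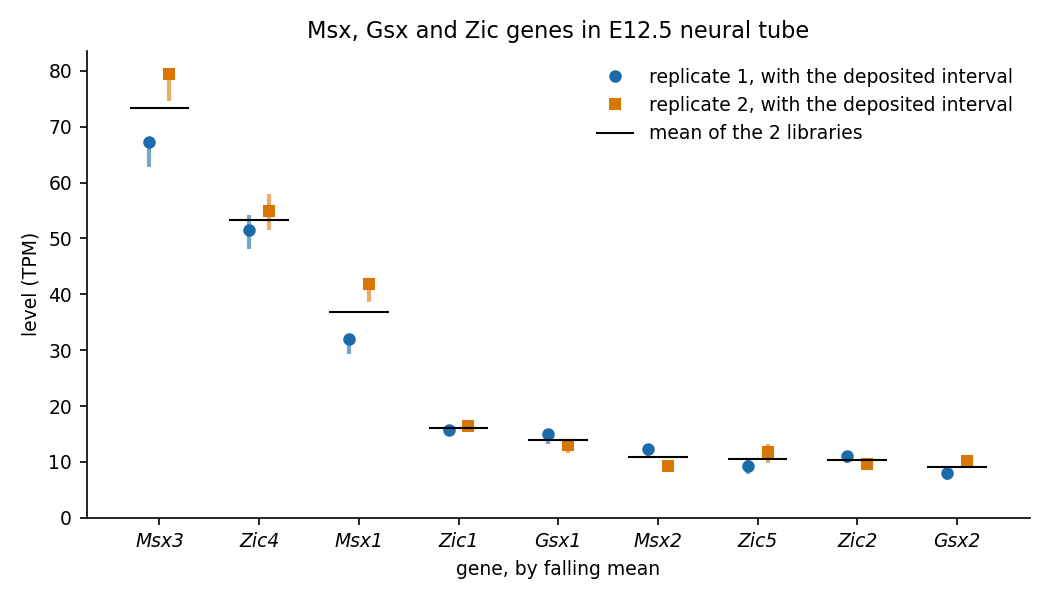
Level of each gene in TPM (vertical axis, linear) by falling mean, with a circle for replicate 1, a square for replicate 2, the deposited interval of each value as a coloured line, and the mean of the 2 libraries as a black line. Msx3 lay at 67.2 and 79.4 TPM, above Zic4 in both libraries, and the lowest 4 genes lay between 7.95 and 12.4 TPM.

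Msx3 (ENSMUSG00000025469, chr7:140046157-140049089, minus strand) measured 67.2 TPM in replicate 1 and 79.4 in replicate 2, a mean of 73.3 ± 8.61 (SD, n = 2). These values rested on 2768 and 3382 expected counts. Msx1 (ENSMUSG00000048450, chr5:37820485-37824583, minus strand) measured 31.9 and 41.8 TPM, a mean of 36.9 ± 6.99 (SD, n = 2), from 1164 and 1582 expected counts. Msx1 was thus below Msx3 in both pools, and Msx3 exceeded it 2.10-fold in replicate 1 and 1.90-fold in replicate 2. Msx2 (ENSMUSG00000021469, chr13:53466884-53473074, minus strand) measured 12.4 and 9.32 TPM, a mean of 10.9 ± 2.17 (SD, n = 2), from 580 and 449 expected counts. Msx1 exceeded Msx2 in both libraries, 2.58-fold in replicate 1 and 4.49-fold in replicate 2. On the log2(TPM + 1) scale, Msx1 minus Msx2 was 1.68 ± 0.53 (SD, n = 2), the widest spread of the 5 gene pairs compared, whereas Msx1 minus Msx3 was -0.98 ± 0.10.

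Gsx1 (ENSMUSG00000053129, chr5:147188696-147190947, plus strand) measured 14.9 TPM in replicate 1 and 13.0 in replicate 2, a mean of 14.0 ± 1.35 (SD, n = 2), from 497 and 450 expected counts. Gsx2 (ENSMUSG00000035946, chr5:75075601-75077893, plus strand) measured 7.95 and 10.2 TPM, a mean of 9.10 ± 1.62 (SD, n = 2), from 244 and 328 expected counts. The Gsx genes moved in opposite directions between the pools but kept their order, with Gsx1 1.88-fold above Gsx2 in replicate 1 and 1.27-fold above it in replicate 2. The forebrain genes of the ventral telencephalon, where Gsx factors also act, were near the limit: Six3 was at 0.11 TPM in replicate 1 and listed at 0 in replicate 2, and Nkx2-1 was listed at 0 in both. Of 6 such markers, 2 were detected, Dlx2 at 1.22 ± 0.13 TPM and Dlx1 at 1.19 ± 0.23 (SD, n = 2), and Dlx5 was at 0.83 ± 0.33 TPM. The summed level of all 6 was 3.34 and 3.25 TPM. Levels of different genes do not measure the share of a tissue, and which cells the Gsx RNA came from was not tested.

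Zic4 (ENSMUSG00000036972, chr9:91362413-91389348, plus strand) measured 51.6 TPM in replicate 1 and 54.9 in replicate 2, a mean of 53.2 ± 2.36 (SD, n = 2), from 2373 and 2816 expected counts. Its neighbour Zic1 (ENSMUSG00000032368, chr9:91358058-91365810, minus strand) measured 15.7 and 16.5 TPM, a mean of 16.1 ± 0.59 (SD, n = 2), from 1685 and 1801 expected counts. Zic1 was the steadiest member between the pools, and Zic4 exceeded it 3.29-fold and 3.33-fold. Zic2 (ENSMUSG00000061524, chr14:122475435-122479852, plus strand), which is known for its role in forebrain and neural tube closure, measured 11.0 and 9.61 TPM, a mean of 10.3 ± 1.00 (SD, n = 2), from 479 and 428 expected counts. Zic5 (ENSMUSG00000041703, chr14:122456795-122465677, minus strand), which is known from neural crest development, measured 9.26 and 11.8 TPM, a mean of 10.5 ± 1.78 (SD, n = 2), from 742 and 886 expected counts. The order of Zic2 and Zic5 changed between the libraries, with Zic2 minus Zic5 at 0.23 on the log2(TPM + 1) scale in replicate 1 and -0.27 in replicate 2.

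Summed over the 9 genes, the level was 221.9 TPM in replicate 1 and 246.6 in replicate 2. The 3 Msx genes made up 50.3% and 53.0% of it, the 4 Zic genes 39.4% and 37.6%, and the 2 Gsx genes 10.3% and 9.43%. By expected counts, which grow with transcript length, the Zic genes led instead, with 50.1% and 48.9% against 42.8% and 44.7% for Msx. The family order thus depended on the correction for length, while Gsx was the smallest share on either scale, at 7.04% and 6.42% of counts.

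The share of each gene held by each annotated transcript is deposited as a percent of the gene's TPM. Gsx1 has 1 transcript, and all 8 genes with more kept the same leading transcript in both libraries. Over all genes, 8304 had several annotated transcripts and reached 5 TPM in each library, and the leading transcript differed in 7.39% of them. A count of 0 changes in 8 is near that share.

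**Figure D2:**
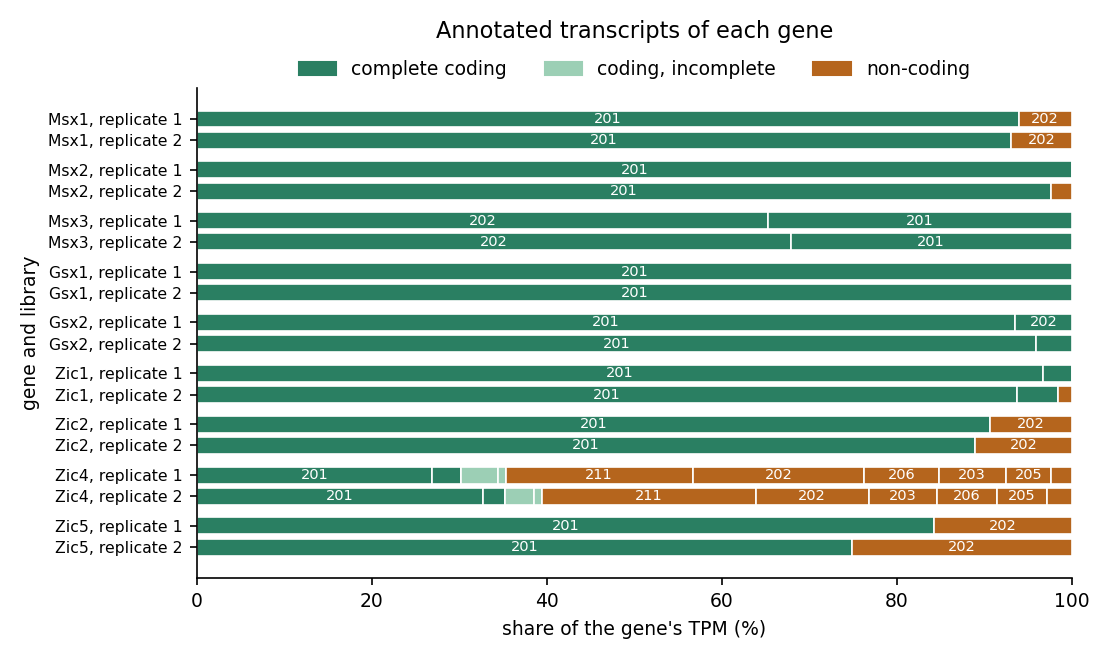
Share of each gene's TPM (horizontal axis, percent) held by its annotated transcripts in each library, with complete coding transcripts in dark green, incomplete coding models in light green and transcripts with no coding sequence in brown; numbers are the transcript suffixes of segments of 5% or more. Zic4 is split over many transcripts, with complete coding ones at 30.2% and 35.2%, and Msx3 is divided between its coding forms.

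Msx3-202, the form with the homeodomain stretch in frame, held 65.3% of Msx3 TPM in replicate 1 and 67.9% in replicate 2. Msx3-201, with the 68 added bases, held 34.7% and 32.1%, from 1046 and 1189 expected counts. The split was thus alike in both pools. Msx3-202 alone, at 43.9 and 53.9 TPM, was above all of Msx1 in both. Msx3-201 also extends 217 bases past the last base of Msx3-202, and the tables do not give reads by junction, so which bases carried the assignment was not tested. The short Gsx2-202 held 6.50% and 4.13% of Gsx2 TPM, from 12.5 and 10.7 expected counts.

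Msx1 and Zic2 each had a minor transcript annotated as a retained intron. Msx1-202 held 6.07% and 6.94% of Msx1 TPM, and Zic2-202 held 9.36% and 11.0% of Zic2 TPM. For Msx2 the retained intron form Msx2-202 was listed at 0 in replicate 1 and held 2.34% in replicate 2, from 6.62 expected counts. Zic5-202, a processed transcript with no coding sequence, held 15.7% of Zic5 TPM in replicate 1 and 25.1% in replicate 2, from only 17.5 and 37.0 expected counts. Leaving it out, complete coding Zic5 was 7.80 and 8.81 TPM, and complete coding Zic2 was 10.0 and 8.55, so their order still changed between libraries.

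Zic4 differed from the other members in how its TPM was divided among annotated transcripts, and whether this reflects the RNA or the annotation was not tested. It has 12 annotated transcripts, and the 3 with a complete coding sequence held only 30.2% of its TPM in replicate 1 and 35.2% in replicate 2. Every other member had at least 74.85% in such transcripts in both libraries. Zic4-201, which is coding, held 26.8% and 32.7%. The retained intron transcript Zic4-211 held 21.4% and 24.4%, and the processed transcript Zic4-202 held 19.6% and 12.9%. With complete coding transcripts only, Zic1 was at 15.7 and 16.2 TPM, and the range of Zic4 overlapped it. Zic4 no longer exceeded Zic1 in replicate 1, and Zic1 minus Zic4 moved from -1.67 to -0.12 in log2 TPM. With 12 overlapping transcripts, how reads were divided among them is uncertain.

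Annotated starts of Zic4 fall in several places. A transcript that starts inside Zic1, Zic4-208, held 0.89% in replicate 1 and was listed at 0 in replicate 2. Another 8 start between Zic1 and the shared internal exon, and held 47.5% and 48.7%. The remaining 3 start further inside the gene, and held 51.6% and 51.3%, so the division by start was nearly equal in both pools. The only transcript within 25 bases of the RefSeq start, Zic4-204, was listed at 0 in both.

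**Figure D3:**
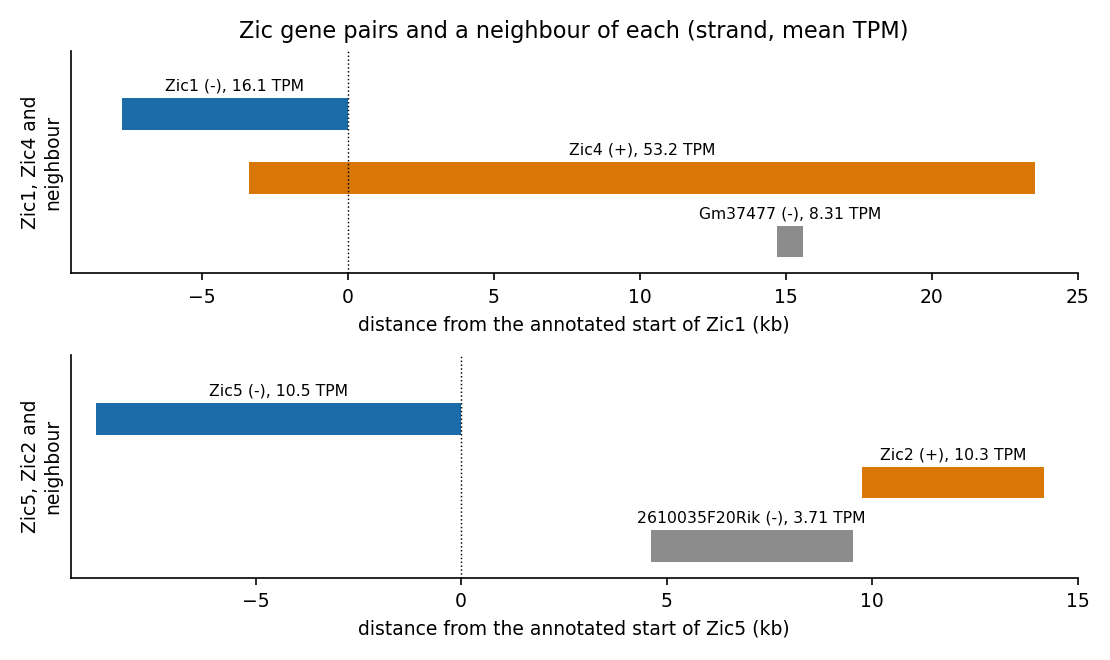
Map of the Zic pairs to scale, with the distance in kb from the annotated start of Zic1 (top) or Zic5 (bottom) on the horizontal axis, and each bar an annotated gene with its strand and mean TPM. Zic1 and Zic4 overlap head to head, whereas Zic5 and Zic2 are apart with 2610035F20Rik between them.

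In GENCODE, Zic1 and Zic4 overlap by 3398 bases on opposite strands of chr9, and their RefSeq starts are 3204 bases apart. Gm37477, an unclassified gene on the opposite strand within Zic4, overlaps exons of Zic4-211 by 468 bases and was listed at 8.06 and 8.57 TPM. No source used here says whether reads were counted by strand, so reads from bases that opposed genes share cannot be told apart. For Zic1 and Zic4 the overlap comes from Zic4-208 alone, which was given 2.04 expected counts in replicate 1 and 0 in replicate 2. Every other Zic4 transcript starts past the end of Zic1. Zic5 and Zic2 do not overlap, and their starts are 9758 bases apart on chr14. Between them lies the processed transcript gene 2610035F20Rik, whose start is 236 bases from that of Zic2 on the opposite strand. It was the neighbour with the largest difference between pools, at 3.00 and 4.41 TPM and a log2 count ratio of 0.67 (95% interval 0.29 to 1.06). The neighbour was thus higher in replicate 2, as was Zic5 (log2 count ratio 0.16, 95% interval 0.02 to 0.30), whereas Zic2 was lower there.

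The other genes annotated within 10 kb showed no count ratio interval clear of 0. Next to Msx3, Tubgcp2, a part of the microtubule nucleation complex, was at 48.4 ± 2.12 TPM and the zinc finger gene Zfp511 at 34.6 ± 0.97 (SD, n = 2). Beside Zic1 and Zic5, A730094K22Rik was at 2.61 ± 0.69 TPM and Gm5089 at 1.09 ± 0.03 (SD, n = 2). The small nucleolar RNA Gm24556 near Gsx1 was listed at 0 in both libraries and has no count ratio. Its annotated span, chr5:147200124-147200253, is shorter than the 200 nucleotides above which RNA was taken. Its value of 0 thus does not show that it was absent.

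Promoter windows from RefSeq (GRCm38.p6) were matched for 8 of the 9 genes; Zic2 was the exception. For Msx1, Msx3, Gsx1 and Gsx2, 100% of the gene's TPM belonged to transcripts that start within 25 bases of the RefSeq start. The share was 96.7% and 93.7% for Zic1, 84.2% and 74.9% for Zic5 and 0% for Msx2, whose nearest annotated start is 294 bases away. The 100 bases that end 10 bases before the start are shown for the 4 genes with none of their own annotated exon bases in that stretch. They are also the 4 genes at 100%. Zic1 has 32 exon bases there and Zic5 has 9. A match to TATAAA on either strand is in capitals.

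Msx1 (chr5:37824596-37824695, minus strand): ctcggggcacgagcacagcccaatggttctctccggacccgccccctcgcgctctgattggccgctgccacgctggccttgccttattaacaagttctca
Msx3 (chr7:140049099-140049198, minus strand): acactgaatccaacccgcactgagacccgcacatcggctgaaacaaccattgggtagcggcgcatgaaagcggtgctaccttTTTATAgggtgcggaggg
Gsx1 (chr5:147188586-147188685, plus strand): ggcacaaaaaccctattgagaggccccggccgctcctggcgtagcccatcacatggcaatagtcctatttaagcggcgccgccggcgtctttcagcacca
Gsx2 (chr5:75075491-75075590, plus strand): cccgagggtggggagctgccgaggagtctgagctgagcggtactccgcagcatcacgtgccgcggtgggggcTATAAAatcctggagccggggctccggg

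TATAAA, the letters of a TATA box, was found on either strand in the 250 bases before the start in Msx3 and Gsx2, 2 of 8 genes, against 12.4% of 32851 windows. The match begins 28 bases before the start of Msx3, as its reverse complement, and 38 bases before that of Gsx2. Msx1 and Gsx1, the paralogs of these genes, have no such match in the window. Msx2 and Zic4 are among the 8, although 0% of their TPM belonged to a transcript at that start. The window of Msx2 lies within its transcripts rather than before them. In Zic4, by contrast, Zic4-211 starts inside the window, at base 91368894, and held 21.4% and 24.4% of Zic4 TPM. Zic4-207 also starts inside it, at base 91368812, and held 4.22% and 3.31%. CCAAT was present in 4 of 8 genes (33.8% of windows) and GGGCGG, the core of a GC box, in 5 of 8 (32.7% of windows). GGCGCC was present in 2 of 8, Gsx1 and Zic1 (9.59% of windows), and CTTTGAT, a TCF/LEF core, in 0 of 8 (3.21% of windows). Without Msx2 and Zic4, CCAAT was present in 3 of 6 genes, GGGCGG in 4 of 6, and TATAAA and GGCGCC in 2 of 6 each. All were searched on both strands, and GGGCGG and GGCGCC can overlap in sequence. These are matches of letters only. The 250 upstream bases had 68.0% G and C in Msx1, 60.0% in Msx3, 54.0% in Gsx1 and 63.6% in Gsx2. Msx2 had 61.6%, Zic1 66.0% and Zic5 62.4%, whereas Zic4 had 44.4%, and the median over all windows was 52.4%.

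Between the pools, 0 of 9 genes differed by over 2-fold in log2(TPM + 1), and all 9 passed the filter of a mean of 1 TPM. Over all 15735 genes that passed it, 1.43% did. Smaller differences were set against counting error with the ratio of TMM-scaled expected counts, replicate 2 over replicate 1, and its exact (Clopper-Pearson) 95% interval. This interval covers counting error only, not the variation between pools. By this rule 5 of 9 genes were higher in replicate 2, against 16.0% of all 17642 genes with at least 20 summed counts, and 3 of 9 were lower, against 15.6%. In either direction this came to 8 of 9 genes, against 31.6% of all genes and 34.2% of the 8425 genes whose summed counts lay in the members' range of 572 to 6150. The median log2 count ratio was 0.15 over the members and 0.00 over all genes.

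**Figure D4:**
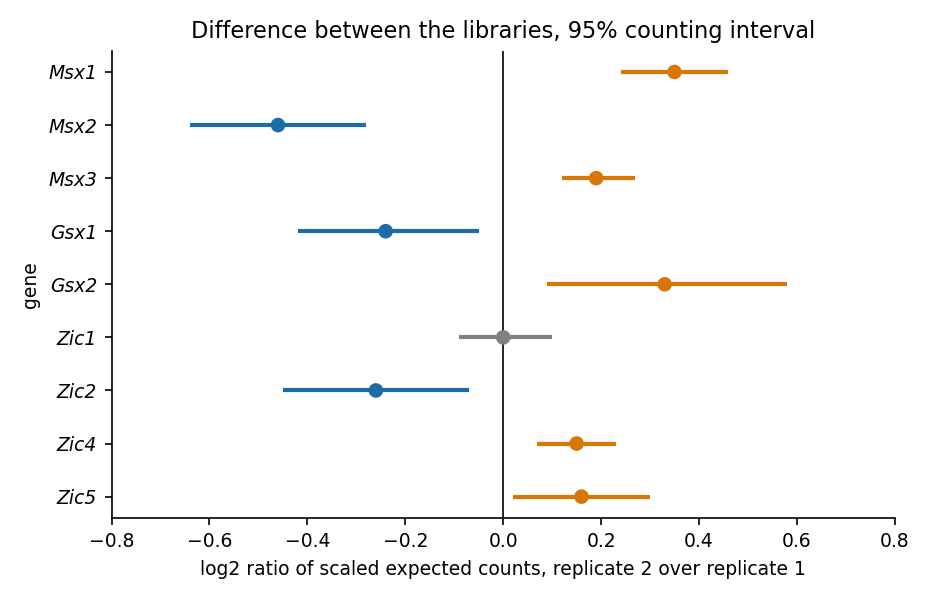
Log2 ratio of scaled expected counts, replicate 2 over replicate 1 (horizontal axis), for each gene, with the exact 95% counting interval as a line; orange intervals lie above 0, blue ones below 0 and the grey one includes 0. Msx1 at 0.35 and Msx2 at -0.46 are the farthest from 0 in each direction.

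Each family held genes that differed in opposite directions. Msx1 was higher in replicate 2, with a log2 count ratio of 0.35 (95% interval 0.24 to 0.46), and Msx3 was higher by 0.19 (0.12 to 0.27). Msx2 was lower, at -0.46 (-0.64 to -0.28). Gsx2 was higher, at 0.33 (0.09 to 0.58), while its paralog Gsx1 was lower, at -0.24 (-0.42 to -0.05). Among the Zic genes, Zic4 at 0.15 (0.07 to 0.23) and Zic5 at 0.16 (0.02 to 0.30) were higher, Zic2 was lower at -0.26 (-0.45 to -0.07), and Zic1 at 0.00 (-0.09 to 0.10) was not separated from equality. Every ratio lay within a factor of 2. The deposited TPM intervals, whose level is not stated, were a stricter measure. They did not overlap between libraries for Msx1, Msx2, Msx3 and Gsx2, 4 of 9, against 14.3% of genes whose mean reached 1 TPM.

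Other dorsal progenitor genes also differed in both directions. Of 11, 4 were higher in replicate 2 and 4 lower, with a median log2 count ratio of 0.06. Gbx2, a homeodomain factor, was at 76.3 and 65.4 TPM and was lower in replicate 2. Neurog2, a proneural factor, was at 46.0 and 41.1 TPM and was lower. Higher genes, named after their values were seen, were Atoh1, Dbx2 and Olig3. Atoh1, which marks the most dorsal interneuron progenitors, was at 3.99 and 7.04 TPM with a log2 count ratio of 0.78. The ratio was 0.52 for Dbx2 and 0.27 for Olig3. Among lower genes it was -0.31 for Gbx2 and -0.20 for Neurog2. Ptf1a at -0.40 and Pax7 at -0.37, also named after their values were seen, were lower as well. Of 11 ventral progenitor genes, at least 20 counts were summed for 10, and 0 were higher and 5 lower, with a median log2 count ratio of -0.27.

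The members' median lay above that of the ventral genes, and all members but Msx3 lay within the range of the other dorsal genes by mean TPM. The median level was 14.0 ± 1.35 TPM for the members, 31.6 ± 2.71 for the 11 other dorsal genes and 3.50 ± 0.56 for the 11 ventral genes (SD between libraries, n = 2). The quartiles of gene means were 10.5 and 36.9 TPM for the members, 3.83 and 40.4 for the other dorsal genes and 2.52 and 11.2 for the ventral genes. On the log2(TPM + 1) scale the members' median was above the ventral one by 1.70 and 1.77. Members minus other dorsal genes was -0.95 and -1.30 by medians but 0.42 by means, so this difference had no firm direction. All 11 other dorsal genes were detected and 9 of 11 ventral ones, led by Irx3 at 18.8 ± 1.68, Irx5 at 16.6 ± 1.49 and Dbx1 at 12.4 ± 2.16 TPM, which are known from the intermediate tube. The ventral genes Foxn4, at 0.75 ± 0.33 TPM, and Nkx2-9, at 0.30 ± 0.01, were under 1 TPM in both libraries.

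**Figure D5:**
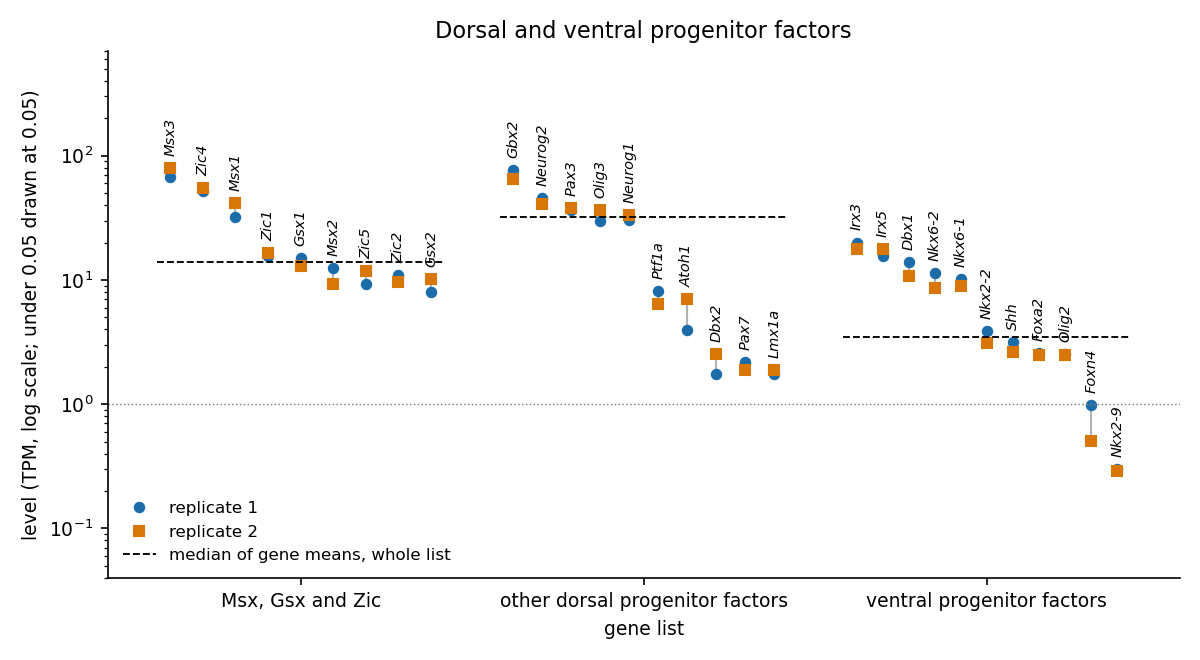
Level in TPM (vertical axis, log scale) of each member, of 10 of the 11 other dorsal progenitor factors and of 11 ventral ones, with a circle for replicate 1 and a square for replicate 2, a dashed line at the median of gene means over the whole list and a dotted line at 1 TPM. All members lie between 7.95 and 79.4 TPM, whereas the other dorsal genes spread from Gbx2 down to Lmx1a at 1.82 TPM.

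Genes of the BMP and Wnt pathways, which act upstream of Msx and Zic genes in the dorsal tube, were also measured. Of 11 dorsal midline signals, 10 were detected, with a median of 4.90 ± 0.15 TPM (SD, n = 2). They were led by Gdf10 at 23.4 ± 2.65, Bmp7 at 12.8 ± 0.90 and Bmp4 at 12.0 ± 0.83 TPM, and Gdf7, a roof plate BMP, was at 0.34 ± 0.01. Of the 10 with at least 20 summed counts, 3 were higher in replicate 2 and 0 lower, with a median log2 count ratio of 0.17. The 3 were Rspo1, an enhancer of Wnt signalling, at 1.04 and 3.80 TPM with a ratio of 1.70, Wnt1 at 6.18 and 10.2 TPM with a ratio of 0.68, and Gdf10 with a ratio of 0.19. Rspo1 and Wnt1 were named after their values were seen. Of 8 general BMP targets, all were detected, led by Id3 at 271.0 ± 3.74, Id2 at 164.7 ± 6.27 and Id4 at 148.6 ± 1.94 TPM. None of the 8 had a count ratio interval clear of 0 (0 higher and 0 lower), with a median of -0.04. No general target was thus separated from equality, whereas Msx1, Msx2 and Msx3 each were; the difference itself was not tested.

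Markers of other tissues were present beside the neural ones. Neural progenitor genes were detected in 10 of 10, led by Fabp7 at 1503 ± 48.2, Vim at 962.2 ± 35.9 and Hes5 at 333.1 ± 8.10 TPM, with 2 higher and 4 lower in replicate 2. Neuronal genes were detected in 8 of 8, led by Tubb3 at 1017 ± 18.9, Nefl at 658.0 ± 82.9 and Stmn2 at 512.3 ± 80.8 TPM, with 4 higher and 1 lower. Both neural lists were thus present in full. Of a list of roof plate and choroid plexus markers, most of them choroid plexus genes, 2 of 8 were detected (Foxj1 at 5.96 ± 0.13 and Lmx1a, a roof plate factor also in the dorsal list, at 1.82 ± 0.10 TPM), with a summed level of 8.89 and 10.2 TPM. Foxj1 made up most of that sum, at 5.86 and 6.05 TPM, and which cells it came from was not tested. The choroid plexus gene Ttr was at 0.18 ± 0.06 TPM and Otx2 at 0.07 in both libraries.

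Msx1 and Msx2 are also expressed in mesenchyme, neural crest derivatives and epidermis, and Zic genes in somite and meninges, so those lists stand beside their differences. Meninges and mesenchyme genes were detected in 10 of 10, led by the collagen genes Col3a1 (408.8 ± 16.1 TPM), Col1a1 (177.1 ± 5.18 TPM) and, after it, Col1a2 (171.3 ± 6.15 TPM), with a summed level of 893.7 and 909.2 TPM; 1 was higher in replicate 2 and 6 lower. Somite, sclerotome and dermomyotome genes were detected in 8 of 8, led by Uncx at 93.9 ± 8.90, Tcf15 at 20.2 ± 2.23 and Pax1 at 11.9 ± 3.77 TPM, with a summed level of 157.8 and 135.6 TPM; 0 were higher and 6 lower, with a median log2 count ratio of -0.64. The somite list thus differed in the same direction as Msx2, Gsx1 and Zic2, and opposite to Msx1, Msx3, Gsx2, Zic4 and Zic5. That direction was not particular to it. The ventral progenitor list (0 higher and 5 lower) and the meninges and mesenchyme list (1 higher and 6 lower) also leaned lower. Crest and ganglion genes were detected in 8 of 9, led by Isl1, which spinal neurons also express, at 133.0 ± 32.1 TPM. Pou4f1 at 107.4 ± 17.3 and Tfap2b at 68.7 ± 5.64 TPM followed, and in bulk tissue their source cannot be told either. The summed level of 363.9 and 434.0 TPM is thus not particular to crest and ganglia. In replicate 2, 4 genes of this list were higher and 3 lower. Epidermal genes were detected in 6 of 7, led by Krt5 at 11.0 ± 0.51, Krt14 at 9.17 ± 0.61 and Krt8 at 5.51 ± 0.92 TPM, with a summed level of 33.5 and 34.8 TPM; 1 was higher and 0 lower. The epidermal gene Tfap2c, at 0.89 ± 0.06 TPM, was under 1 TPM in both libraries. The part of these tissues in the levels or differences of the Msx and Zic genes was not tested.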

How the data were processed

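For each library the authors deposited gene and transcript tables. Alignment was to an mm10 transcriptome of GENCODE M4, per the deposited read-me text, and no source used here names the quantification program. Expected counts are the authors' estimated reads, per the file headers, and need not be whole. The deposited TPM and FPKM values were corrected by the authors for length and depth. Transcript shares within a gene are deposited as percent, by maximum likelihood or posterior mean. The series title marks it as superseded by a later series, which was not used here.

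Names, transcripts and 1-based coordinates came from GENCODE M21 (GRCm38), matched by identifier without version. Rows for spike-ins and rows named by number were left out. The depth was 31610805 expected counts on mouse genes in replicate 1 and 33530172 in replicate 2. A count of 0 allows up to 3 counts, which is 0.0949 and 0.0895 CPM (counts scaled to library size), and intervals and floors cover counting error only. Counts were rounded and scaled by edgeR 4.0.16 (TMM), with DESeq2 1.42.0 size factors as an alternative. Pseudocount was 1 TPM. The members, lists and tests were chosen with earlier results of these data known. The naming rule takes all members, the 3 highest and up to 3 genes under 1 TPM of each other list, and genes within 10 kb of a member; some genes it takes are not reported here. Alternatives were the estimate, pseudocount, thresholds, scaling, filters and leaving out each library.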

Additional observations from a re-analysis of the deposited data

How the results depend on the processing

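Detection of 9 genes, 0 genes over 2-fold apart, 8 genes with an interval clear of equality and 8 with the same leading transcript held under every alternative run for them. Without length correction, the Zic share was 49.5%, the Msx share 43.7% and the Gsx share 6.73%, and with complete coding transcripts only (chosen after seeing the data) 26.5%, 61.5% and 12.0%. In log2 units, Zic1 minus Zic4 was -1.72 with a pseudocount of 0.1 TPM, -0.56 without length correction and -0.12 with complete coding transcripts. Without length correction, Zic2 minus Zic5 was -0.80 and Msx1 minus Msx3 -1.15. The members minus other dorsal genes reversed to 0.42 with means in place of medians, and was -0.31 in CPM. The members minus ventral genes was 1.81 with means, 1.97 with a pseudocount of 0.1 TPM, 1.59 with posterior mean TPM and 2.20 in CPM. The cause of these shifts beyond the change of unit was not tested. Of 45 alternative values for single members that kept both libraries, 43 moved by no more than 1 SD between libraries (levels) or the distance from the centre to the bound of the 95% counting interval (ratios); the exception was the log2 ratio of Zic5, which was 0.32 by TPM and 0.16 by counts under either scaling. Leaving out a library gives the value of the other library, which stands in the report. A ratio between libraries has no such value. No paired analysis was possible because there is 1 group. With 2 libraries no outlier among replicates can be called, and the summed counts of 572 to 6150 per gene set the width of the intervals.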
